A study of Mus musculus with 12 samples.

Results

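The genes described here are 10 genes of the NRF2 antioxidant pathway, out of 13957 gene symbols listed in the deposited table. They were taken by symbol: NFE2L2, KEAP1, NQO1, GCLC, GCLM, SLC7A11, TXNRD1, SRXN1, PRDX1 and GPX1. All 10 were listed among 13647 gene tests above the lesion, and 8 were listed among 12338 below it, where KEAP1 and TXNRD1 had no row. RNA-seq was performed on spinal cord of male mice, 4 months old at surgery, that express human ApoE4 and were killed 14 days after a contusion at thoracic vertebra 9. Every group carried ApoE4 and was injured, and the groups differed in the number of working synj1 alleles (synj1+/+, labelled homozygous, or synj1+/-, labelled heterozygous, with 1 inactive allele) and in the position of the segment, above or below the injury. Each of the 4 groups had 3 libraries, and ApoE3 mice and sham-operated mice were not analysed here.

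NRF2, the protein made from NFE2L2, is a transcription factor that switches on antioxidant and detoxification genes. KEAP1 holds it in the cytoplasm and hands it to the CUL3 ubiquitin ligase for destruction. When oxidants or reactive chemicals modify KEAP1, NRF2 builds up, enters the nucleus, pairs with a small MAF protein and binds antioxidant response elements near its target genes. In the nervous system this pathway is known for its activity in astrocytes, which supply neurons with glutathione precursors, and in microglia and macrophages that take up debris.

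The table holds a single value per gene and group, which the authors pooled from the 3 libraries. No column belongs to 1 library, so no spread between mice and no test could be computed, and the number of reads behind each value is not in the table. Per the study's methods, the libraries of a site were reduced to the same total of reads before alignment. All values below are pooled values on the scale of the table, read as FPKM (fragment counts scaled to transcript length and sequencing depth) plus 1, because the lowest value listed is exactly 1. Differences are log2 ratios of the pooled value in mice labelled synj1+/- over that in mice labelled synj1+/+, and carry no error. A ratio of at least 1.3 in either direction was counted as past the fold, and each such count is read against the share of all genes listed that passed it.

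SYNJ1, the gene with the inactive allele, was examined first as a check of the labels. Its pooled value above the lesion was 1905 in mice labelled synj1+/+ and 2404 in those labelled synj1+/-, and below the lesion it was 1847 and 2593. SYNJ1 RNA was thus higher in mice labelled synj1+/- at both sites, which goes against the labels if the inactive allele makes less RNA. These are pooled values with no spread and do not by themselves show that labels were exchanged. The study's methods state that the mice were genotyped by PCR, and the study also measured synj1 mRNA by RT-qPCR, which is not analysed here. The sources used here do not say which part of the gene the inactive allele lacks. Neuron markers, given further on, were also higher in mice labelled synj1+/-, in 3 of 5 above and 4 of 4 below the lesion. Of all genes, 51% were lower above and 47.2% below. The part of neurons in the SYNJ1 values was not tested. Directions are therefore stated for the groups as labelled. Synj1 (chromosome 16, 90936092 to 91011308) is overlapped by 3 other annotated genes, an antisense gene among them, and the kit used does not keep the strand, so reads from these genes cannot be told apart. Markers of spinal cord were abundant in all 4 groups: the lowest pooled value was 8485 for GFAP, the intermediate filament of astrocytes, 9724 for MOBP, a myelin protein gene, and 5239 for SNAP25, a presynaptic gene of neurons. The myelin genes MBP, MAG and CNP were not listed at either site.

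As a description of the sequence near these genes, promoter windows of RefSeq on GRCm38.p6 were taken from 250 bases before to 50 bases after each start site. They were searched for the core of the antioxidant response element, TGACNNNGC, on both strands. Of the 10 genes, 9 had a window in that set, with 11 windows in all, and GCLC had none. A match was found for 5 genes, in 1 window each, so that 5 of the 11 windows held a match. Of the 32851 windows of all genes, 12.4% hold at least 1. The matches are shown here with 10 bases on either side, 5′ to 3′ on the strand of the gene, with the matching letters in capitals.
Nfe2l2 (chr2:75704885-75704913, minus strand): tcagcccaccTGACTCCGCcatgccccgg
Gclm (chr3:122245413-122245441, plus strand): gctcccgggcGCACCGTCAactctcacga
Prdx1 (chr4:116685456-116685484, plus strand): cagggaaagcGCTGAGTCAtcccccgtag
Txnrd1 (chr10:82859104-82859132, plus strand): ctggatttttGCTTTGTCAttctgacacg
Srxn1 (chr2:152105542-152105570, plus strand): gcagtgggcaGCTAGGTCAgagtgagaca

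The match of Prdx1 overlapped an AP-1 element (TGACTCA or TGAGTCA), a motif that 5.2% of all windows hold. The windows of Prdx1 and Srxn1 each held 2 AP-1 elements. Txnrd1 has 3 start sites in the set, and the match lay before the second. The match of Srxn1 lay after its start site, at base 29. The windows of Slc7a11, Nqo1, Keap1 and Gpx1 held no match, which says only that these letters are not in those windows. Likewise, a match says only that the letters are there, and binding of NRF2 was not measured.

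**Figure D1:**
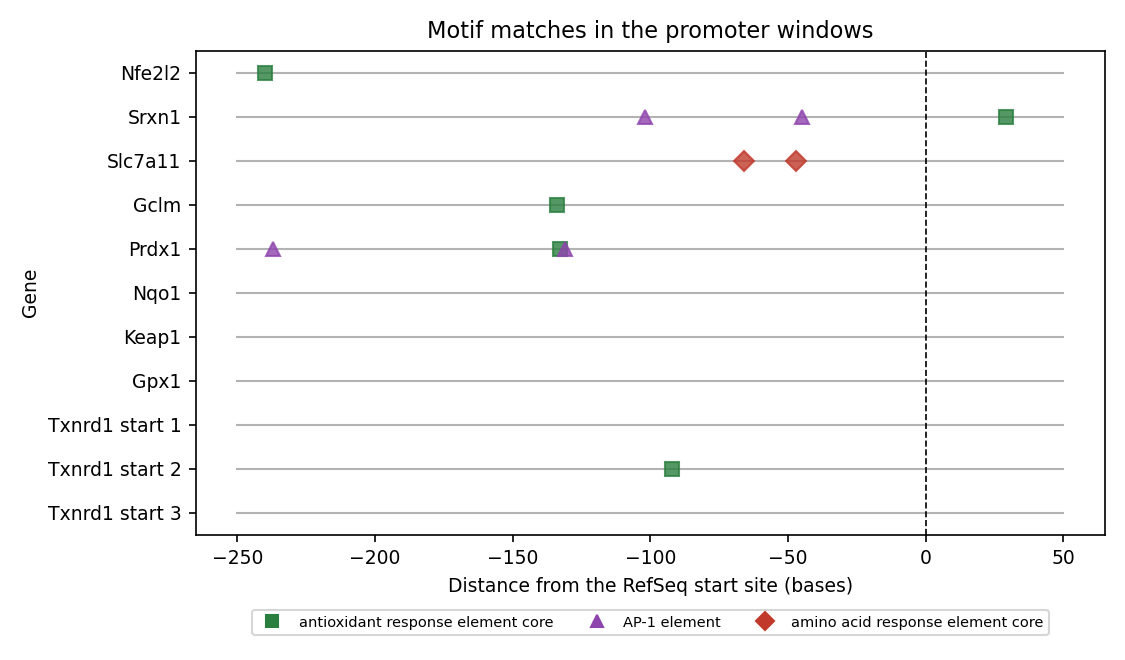
Positions of motif matches (x axis, bases from the RefSeq start site, dashed line at 0) in the 11 promoter windows of 9 genes (y axis). Squares are antioxidant response element cores, triangles AP-1 elements and diamonds amino acid response element cores; Slc7a11 holds 2 of the last kind, 66 and 47 bases before its start.

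The window of Slc7a11 is shown because this gene had the largest difference between genotypes of the 10 genes at both sites. It held the core of the amino acid response element, TGATGNAA, 2 times in opposite orientations, and 3.97% of all windows hold it at least once. That element is bound by ATF4, the factor of the amino acid and integrated stress responses, and it was searched for only after the values of SLC7A11 had been seen. The 250 bases before the start site are given 5′ to 3′ with both cores in capitals.
Slc7a11 (chr3:50443614-50443863, minus strand): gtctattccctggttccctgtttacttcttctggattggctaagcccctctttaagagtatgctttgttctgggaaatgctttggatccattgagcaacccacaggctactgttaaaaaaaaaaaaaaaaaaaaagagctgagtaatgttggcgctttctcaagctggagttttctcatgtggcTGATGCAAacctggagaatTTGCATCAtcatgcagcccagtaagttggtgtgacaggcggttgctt

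Levels differed widely among the 10 genes. Above the lesion in mice labelled synj1+/+, the pooled values ran from 825 for GPX1 to 7.70 for NQO1. TXNRD1 was next to GPX1 with 242, followed by KEAP1 with 114, GCLM with 91.9, SRXN1 with 79.1, PRDX1 with 58.0, NFE2L2 with 49.6, GCLC with 40.7 and SLC7A11 with 11.3. The order in mice labelled synj1+/- above the lesion differed in that GCLC stood before NFE2L2. Below the lesion the order of the 8 genes was the same in both genotypes, with GPX1 highest and NQO1 lowest, and SRXN1 and PRDX1 were nearly level in mice labelled synj1+/+ (69.3 and 69.2). Without a spread, it cannot be said which neighbours in these orders differ.

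**Figure D2:**
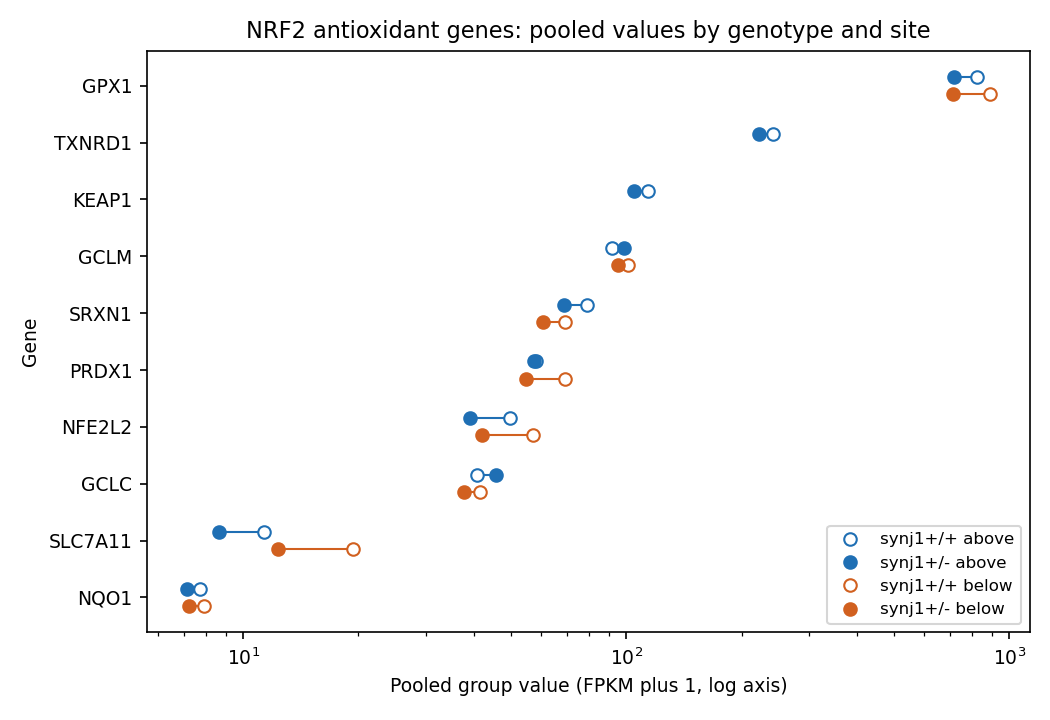
Pooled values (FPKM plus 1, log axis) of the 10 genes in the 4 groups, with open circles for synj1+/+ and filled circles for synj1+/-, blue above and orange below the lesion, each circle pooled from 3 libraries. The filled circle lies to the left of the open one for 8 of 10 genes above and 8 of 8 genes below, and the longest line is that of SLC7A11 below (19.3 and 12.4).

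Above the lesion, 8 of the 10 genes had a lower pooled value in mice labelled synj1+/- and GCLC and GCLM a higher one, where 51% of all genes listed were lower. The median log2 ratio of the 10 genes was -0.13, against -0.0039 over all genes listed. Past 1.3-fold, 1 of 10 genes was lower (SLC7A11) and 0 were higher, where 5.32% of all genes were lower and 2.81% higher by that much. NFE2L2 was next, at 1.27-fold lower.

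Below the lesion, all 8 genes listed had a lower pooled value in mice labelled synj1+/-, where 47.2% of all genes listed were lower. The median log2 ratio of the 8 genes was -0.26, against 0.014 over all genes listed. Past 1.3-fold, 2 of 8 genes were lower (SLC7A11 and NFE2L2) and 0 were higher, where 9.23% of all genes were lower and 5.4% higher by that much. A mouse may have given a segment to each site, so the counts at the sites may not be independent of each other.

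**Figure D3:**
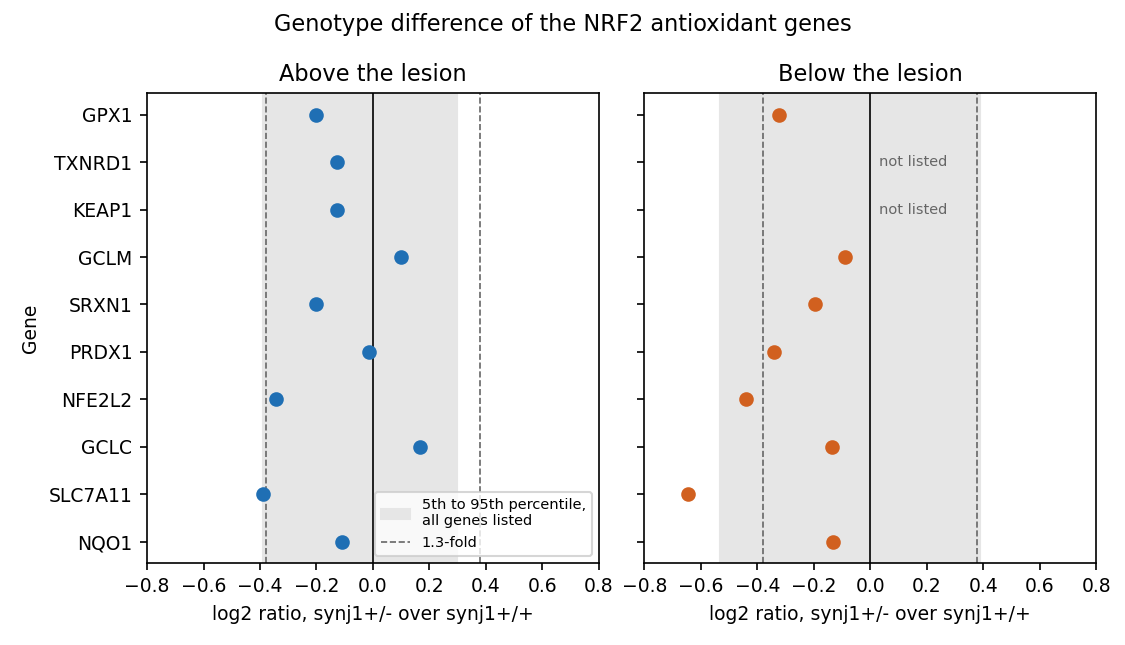
Log2 ratio of the pooled value in synj1+/- over synj1+/+ (x axis) for each gene (y axis), above and below the lesion, with dashed lines at 1.3-fold and a grey band from the 5th to the 95th percentile of all genes listed at the site. SLC7A11 below, at -0.64, lies outside the band (-0.53 to 0.39), and the other points lie within it at both sites.

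NFE2L2 and KEAP1 are the transcription factor and its sensor. The pooled value of NFE2L2 above the lesion was 49.6 in mice labelled synj1+/+ and 39.1 in those labelled synj1+/-, a log2 ratio of -0.34. Below the lesion it was 56.9 and 42.0, a log2 ratio of -0.44 (1.36-fold lower). Thus both values of the group labelled synj1+/- were under both values of the group labelled synj1+/+. KEAP1 was listed above the lesion alone, with 114 and 105, a log2 ratio of -0.13. In GENCODE M21 on GRCm38, Nfe2l2 lies on chromosome 2 from 75675513 to 75704641, where a small nuclear RNA gene on its strand overlaps it. Keap1 lies on chromosome 9 from 21229730 to 21239361, where an antisense gene overlaps it. The library kit does not keep the strand, so reads from Keap1 and its antisense partner cannot be told apart.

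SLC7A11, GCLC and GCLM act in the making of glutathione, the main small-molecule antioxidant of cells. SLC7A11 is the light chain of the cystine/glutamate exchanger system xc-, which brings in cystine and releases glutamate. Its pooled value above the lesion was 11.3 in mice labelled synj1+/+ and 8.63 in those labelled synj1+/-, a log2 ratio of -0.39 (1.31-fold lower). Below the lesion it was 19.3 and 12.4, a log2 ratio of -0.64 (1.56-fold lower). SLC7A11 was thus lower in the mice labelled synj1+/- within each site, but the lower value below the lesion exceeded the higher value above it. The 1 added to each value shrinks the ratios of genes at such low levels, and with it taken away the log2 ratios were -0.43 above and -0.69 below the lesion. Slc7a11 spans chromosome 3 from 49892526 to 50443614, and 5 other annotated genes, 3 of them processed pseudogenes and 1 an antisense gene, overlap it.

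GCLC and GCLM encode the catalytic and the modifier subunit of glutamate-cysteine ligase, the rate-limiting enzyme of glutathione synthesis. The pooled value of GCLC above the lesion was 40.7 in mice labelled synj1+/+ and 45.6 in those labelled synj1+/-, a log2 ratio of 0.17. Below the lesion it was 41.6 and 37.8, a log2 ratio of -0.14. GCLM had 91.9 and 98.4 above the lesion and 101 and 95.2 below it, with log2 ratios of 0.098 and -0.090. Both subunits were therefore higher above the lesion and lower below it in mice labelled synj1+/-, by at most 1.12-fold, and the difference between the sites was not tested. Gclm (chromosome 3, 122245557 to 122270732) has a second gene on the opposite strand and a transcribed pseudogene within it, and Gclc (chromosome 9, 77754535 to 77794485) overlaps no other gene.

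TXNRD1, SRXN1 and PRDX1 belong to the thioredoxin and peroxiredoxin system, in which TXNRD1 reduces thioredoxin with NADPH, PRDX1 breaks down hydrogen peroxide and SRXN1 repairs over-oxidised peroxiredoxins. The pooled value of SRXN1 was 79.1 in mice labelled synj1+/+ and 68.8 in those labelled synj1+/- above the lesion, whereas below it the values were 69.3 and 60.5. Its log2 ratio was -0.20 at both sites. PRDX1 differed little above the lesion, with 58.0 and 57.4 (log2 ratio -0.016), and more below it, with 69.2 and 54.7 (log2 ratio -0.34). The odd value among the 4 for PRDX1 was that of the group labelled synj1+/+ below the lesion, and the other 3 lay between 54.7 and 58.0. TXNRD1 was listed above the lesion alone, with 242 and 222, a log2 ratio of -0.13. Srxn1 (chromosome 2, 152105516 to 152111376) and Prdx1 (chromosome 4, 116685544 to 116700822) overlap no other annotated gene, whereas Txnrd1 (chromosome 10, 82833951 to 82897712) is overlapped by 3, the protein-coding Eid3 among them.

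NQO1, a quinone reductase and the classical NRF2 target, had the lowest level of the 10 genes. Its pooled value was 7.70 in mice labelled synj1+/+ and 7.14 in those labelled synj1+/- above the lesion, whereas below it the values were 7.92 and 7.23, with log2 ratios of -0.11 and -0.13. GPX1, a selenium-containing glutathione peroxidase, had the highest level. Its pooled value was 825 and 718 above the lesion and 888 and 711 below it, with log2 ratios of -0.20 and -0.32. As with PRDX1, the 2 values of the group labelled synj1+/- were close to each other across the sites, and the highest value was that of the group labelled synj1+/+ below the lesion. Nqo1 (chromosome 8, 107388225 to 107403206) and Gpx1 (chromosome 9, 108338903 to 108340343) overlap no other annotated gene.

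The same values were then read between the sites. The authors evened out the number of reads within each site and not across sites, so a ratio between sites rests on their normalization, and the median over the 12023 genes compared is given beside it (-0.00083 in synj1+/+ and 0.022 in synj1+/-). In mice labelled synj1+/+, 7 of the 8 genes had a higher pooled value below the lesion than above it, with a median log2 ratio (below over above) of 0.12, where 49.8% of all genes were higher below. In mice labelled synj1+/-, 3 of the 8 were higher below, with a median of -0.031, where 55.5% of all genes were higher below. At least 1.3-fold higher below was 1 of 8 genes in each genotype, where 7.73% of all genes in synj1+/+ and 4.43% in synj1+/- passed. It was SLC7A11 each time, with 1.71-fold in synj1+/+ and 1.43-fold in synj1+/-. SRXN1 was the exception in synj1+/+, with a log2 ratio of -0.19 in both genotypes. In the list of 56 antioxidant genes described next, 51 were compared between the sites. Of these, 38 were higher and 13 lower below in synj1+/+ (median 0.13), and 35 and 16 in synj1+/- (median 0.069). Cell type markers also differed: DCN, of fibroblasts, was 13.1-fold higher below in synj1+/+ and 2.62-fold in synj1+/-. SYT1, of neurons, was 1.46-fold lower below in synj1+/+ and 1.10-fold in synj1+/-. The part of cell types in these ratios was not tested.

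Other genes of the antioxidant pathways were read from a list of 56 genes in 7 roles, of which 55 were listed above the lesion and 51 below. Above the lesion, 30 were lower and 25 higher in mice labelled synj1+/-, with a median log2 ratio of -0.0080, where 51% of all genes were lower. Past 1.3-fold, 4 of 55 were lower (MAFF, GPX3, HMOX1 and FTL1) and 1 was higher (TXN1), where 5.32% of all genes were lower and 2.81% higher, so these counts lie near the background. Below the lesion, 35 were lower and 16 higher, with a median of -0.13, where 47.2% of all genes were lower. Past 1.3-fold, 6 of 51 were lower (GPX7, MGST1, GGT5, FTL1, BLVRB and HMOX1) and 0 were higher, where 9.23% of all genes were lower and 5.4% higher, and the count of lower genes is again near the background. FTL1 above the lesion and GGT5, BLVRB and HMOX1 below it were named after their values had been seen.

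**Figure D4:**
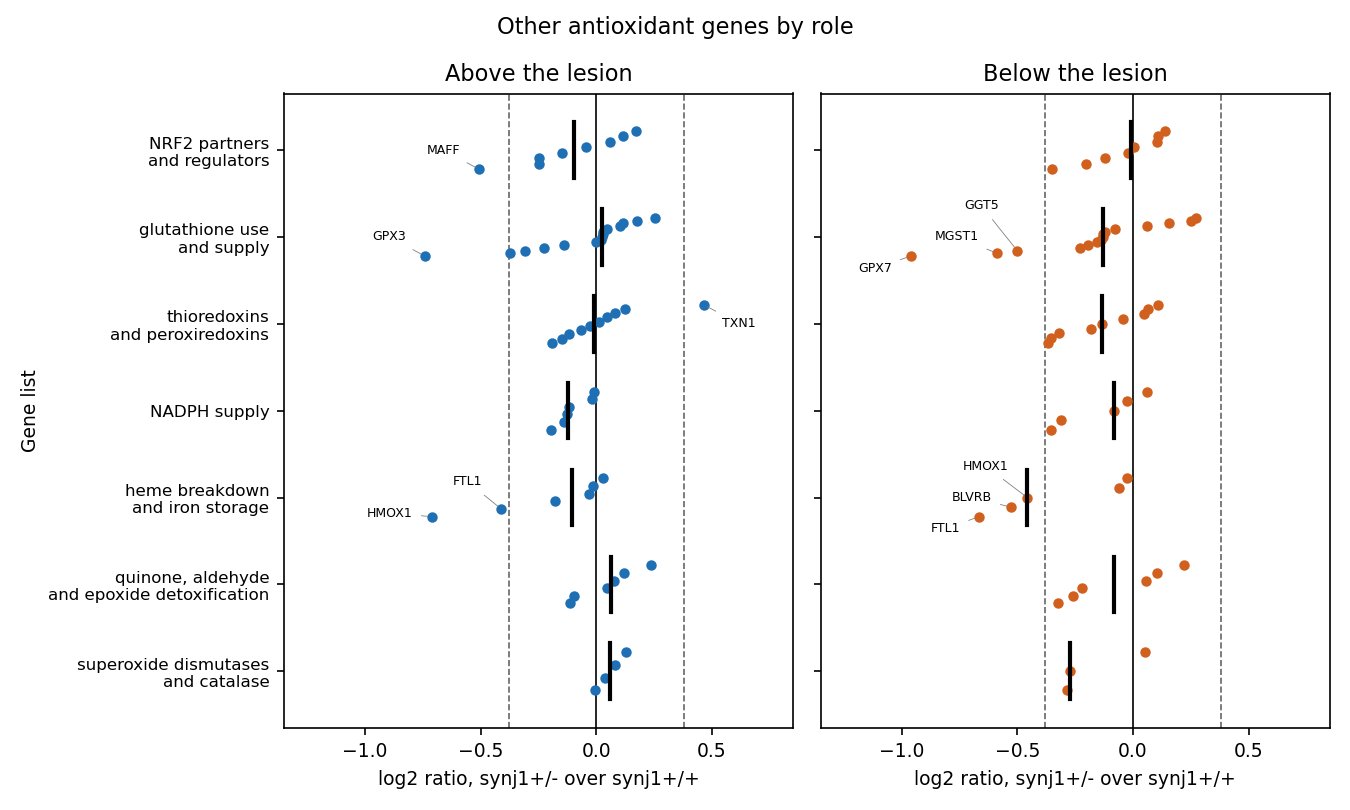
Log2 ratio of synj1+/- over synj1+/+ (x axis) for 55 genes above and 51 genes below the lesion, grouped by role (y axis), each dot a gene and each black bar the median of the role, with dashed lines at 1.3-fold. Genes past 1.3-fold carry their symbol, and those of heme breakdown and iron storage lie farthest to the left as a group below the lesion (median -0.46).

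Among partners and regulators of NRF2, the gene furthest from a ratio of 1 at both sites was MAFF, a small MAF protein with which NRF2 can pair. Its pooled value was 36.4 in mice labelled synj1+/+ and 25.6 in those labelled synj1+/- above the lesion (log2 ratio -0.51), and 36.4 and 28.6 below it (log2 ratio -0.35). NFE2L1, a relative of NRF2, had the highest level of this role, with log2 ratios of -0.044 above and 0.10 below the lesion. In this role, 5 of 8 genes were lower above the lesion and 4 of 8 below, where 51% and 47.2% of all genes were.

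Heme breakdown and iron storage had 5 of 6 genes lower above the lesion and 5 of 5 lower below it. Of all genes, 51% were lower above and 47.2% below. HMOX1, the inducible heme oxygenase that opens the heme ring, had pooled values of 22.1 in mice labelled synj1+/+ and 13.5 in those labelled synj1+/- above the lesion, a log2 ratio of -0.71. Below the lesion its values were 26.9 and 19.6, a log2 ratio of -0.46. FTL1, the light chain of the iron store ferritin, had 742 and 558 above the lesion and 1083 and 683 below it, with log2 ratios of -0.41 and -0.67. FTH1, the heavy chain, had the highest level of the list and differed little, with log2 ratios of -0.013 and -0.027. Ftl1 has annotated pseudogene copies, so the number of its reads is uncertain. Such copies elsewhere in the genome were not searched for among the other genes.

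Of the genes that use or supply glutathione, 6 of 15 were lower above the lesion and 11 of 15 below. Over all genes, the shares lower were 51% above and 47.2% below. GPX3, a secreted glutathione peroxidase, had 20.1 in mice labelled synj1+/+ and 12.0 in those labelled synj1+/- above the lesion (log2 ratio -0.74), and its log2 ratio below was -0.23. GPX7, a peroxidase of the endoplasmic reticulum, had 6.86 and 3.53 below the lesion (log2 ratio -0.96), and 3.38 in both groups above it. MGST1, a microsomal glutathione transferase, had 456 and 304 below the lesion (log2 ratio -0.59), and its log2 ratio above was -0.14. GPX4, which removes lipid peroxides, had the highest level, with log2 ratios of 0.029 above and -0.16 below the lesion. GGT5, which cleaves extracellular glutathione conjugates, had log2 ratios of -0.37 above and -0.50 below the lesion.

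Thioredoxins and other peroxiredoxins split evenly above the lesion, with 5 of 10 lower, and 6 of 9 were lower below it. The shares of all genes lower were 51% above and 47.2% below. TXN1, the cytosolic thioredoxin, had 8.85 in mice labelled synj1+/+ and 12.2 in those labelled synj1+/- above the lesion (log2 ratio 0.46), and its log2 ratio below was -0.18. PRDX6 had the highest level, with log2 ratios of -0.15 above and -0.32 below the lesion. TXNRD2, the mitochondrial thioredoxin reductase, had 20.3 and 15.8 below the lesion, a log2 ratio of -0.37, against -0.064 above it.

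The enzymes that supply NADPH were lower in 6 of 6 cases above the lesion and 4 of 5 below, none of them past 1.3-fold. Of all genes listed, 51% were lower above the lesion and 47.2% below, and 5.32% and 9.23% were lower past 1.3-fold. The same shares stand beside the other counts of roles given here. PGD, of the pentose phosphate pathway, had 96.8 and 87.9 above the lesion and 118 and 92.4 below it, with log2 ratios of -0.14 and -0.36. G6PDX, the first enzyme of that pathway, had the largest log2 ratio of this role above the lesion, -0.19, and -0.083 below it. Enzymes that detoxify quinones, aldehydes and epoxides had 2 of 6 genes lower above and 3 of 6 below the lesion. CBR1, a carbonyl reductase, was the furthest from a ratio of 1 above the lesion, with log2 ratios of 0.24 above and 0.22 below. EPHX1, the microsomal epoxide hydrolase, was the furthest below the lesion, with 0.047 above and -0.32 below. ALDH3A2, the most abundant of them, had log2 ratios of -0.11 and 0.10. Of the superoxide dismutases and catalase, 1 of 4 was lower above and 2 of 3 below the lesion. SOD3, the extracellular dismutase, had log2 ratios of 0.13 above and -0.27 below the lesion, and CAT, or catalase, had 0.036 and -0.28. SOD2, the mitochondrial dismutase and the most abundant, had -0.0058 and 0.052. Of the genes named here, EPHX1, SOD3 and CAT were thus higher above and lower below the lesion in mice labelled synj1+/-. ALDH3A2 and SOD2 were lower above and higher below, and these differences between the sites were not tested.

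Markers of the cell types that injured cord can hold also differed between these groups. The counts that follow stand beside 51% of all genes lower above the lesion and 47.2% lower below it. In bulk tissue, fewer cells of a type and less RNA per cell cannot be told apart. Macrophage markers were lower in 4 of the 4 listed above the lesion and 5 of the 5 listed below, and their summed pooled value was 343 in mice labelled synj1+/+ and 271 in those labelled synj1+/- above, and 529 and 300.1 below. By the mean of both groups, the most abundant macrophage marker was LGALS3 above the lesion (127 and 119) and CD68 below it (200.5 and 116), and MS4A7 had the largest log2 ratio at both sites (-1.34 and -1.19). Microglia markers were lower in 5 of 6 above and 5 of 5 below the lesion. Their summed value was 963 and 722 above and 1092 and 753 below, led by C1QA at both sites with log2 ratios of -0.59 and -0.64. AIF1 had the largest ratio of the microglia markers below the lesion, -0.93, but 0.042 above it. CD163, a marker of macrophages, was not listed at either site.

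Astrocyte markers were lower in 6 of 6 above the lesion and 5 of 6 below, and their summed value, mostly GFAP, was 17249 in mice labelled synj1+/+ and 14110 in those labelled synj1+/- above and 15359 and 11954 below. GFAP had log2 ratios of -0.29 and -0.39, and AQP4, the water channel of astrocyte end-feet, had -0.40 below the lesion. Fibroblast markers were lower in 5 of 5 at both sites, with a summed value of 32.0 and 21.3 above and 354 and 48.5 below the lesion. DCN led them in level, and COL3A1 had the largest ratio of the values as listed at both sites (-1.60 and -3.14). With the added 1 taken away, COL3A1 had -2.55 above and -3.32 below, and LUM had the largest ratio below, -3.48. Neuron markers were higher in 3 of 5 above and 4 of 4 below the lesion, with summed values of 8890 and 10192 above and 7511 and 9589 below, led by SNAP25 (log2 ratios 0.25 and 0.39). RBFOX3 had the largest ratio above, 0.26, and SYT1 below, 0.54.

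Hemoglobin genes, the erythroid markers, were higher in 4 of 4 at both sites. Their summed value was 250.2 in mice labelled synj1+/+ and 1126 in those labelled synj1+/- above the lesion, whereas below it the values were 629 and 822. HBA-A1 was the most abundant at both sites, and the largest log2 ratios were 2.27 for HBB-BT above and 0.47 for HBA-A2 below. Endothelial markers were higher in 4 of 4 above and 1 of 4 below the lesion. FLT1 led them in level, with log2 ratios of 0.18 and 0.15, and CDH5 had the largest ratio below, -0.61, but 0.10 above. Of the oligodendrocyte markers 2 were listed, MOBP with log2 ratios of -0.049 and -0.092 and MOG with -0.18 and 0.17. PDGFRA, a marker of their precursors, had -0.13 and -0.31. The part of these cell types in the lower values of SLC7A11, NFE2L2, HMOX1 and FTL1, and in the values of the other genes described here, was not tested.

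**Figure D5:**
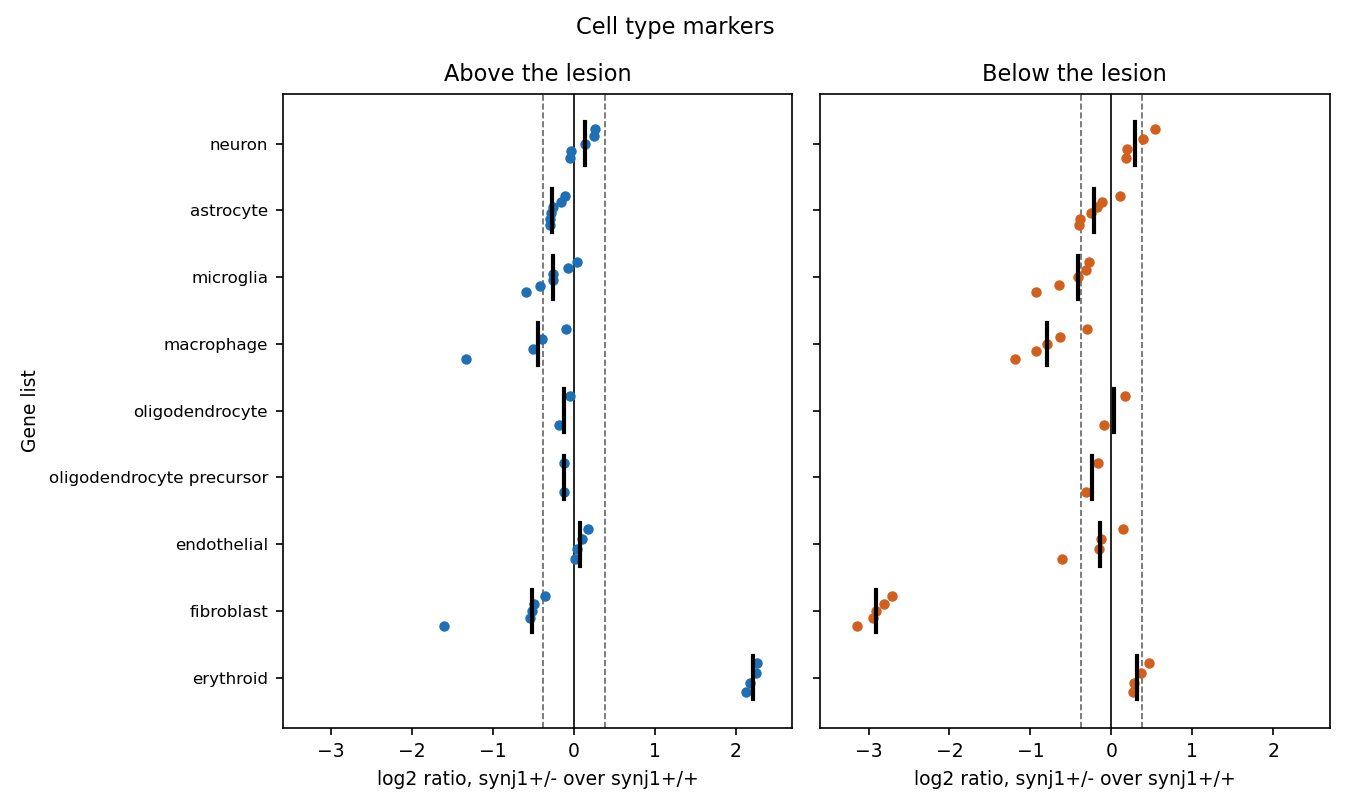
Log2 ratio of synj1+/- over synj1+/+ (x axis) of cell type markers above and below the lesion, each dot a gene and each black bar the median of the list, with dashed lines at 1.3-fold. The fibroblast median is -0.52 above and -2.91 below, the macrophage median -0.45 above and -0.79 below, and the erythroid median 2.21 above and 0.32 below.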

How the data were processed

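The 12 libraries came from TRIzol RNA prepared with an Illumina TruSeq kit, and were grouped by genotype and site as in their titles. The authors aligned the reads with STAR 2.5.4b to GRCm38.p6, with Cuffdiff 1.3.0 also named in the submitters' processing notes, after they removed reads at random until all libraries of a site had equal numbers, and used upper quartile normalization. The deposited values are 1 pooled FPKM per group with 1 added, as read from the values. The deposited table also holds the authors' fold changes, log2 fold changes, p-values and q-values, and a shorter deposited list holds p-values and log2 fold changes only. These were not used. Every gene listed carries the test status Ok, so genes without a value at a site were not analysed here. No column of a single library was found (0 columns), so no error, test or paired fit was possible.

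Log2 ratios of pooled values, counts past 1.3-fold and medians were computed in Python 3.11.15 with numpy 2.4.6, pandas 2.3.3 and matplotlib 3.10.9. A run on simulated fold changes without noise checked only the arithmetic of the ratios and counts. Alternatives were 1.2-fold and 1.5-fold, values minus 1, centring on all genes, a mean of at least 10, and the mean in place of the median. The members, lists and folds were chosen with earlier results of these data known. Named were all 10 members and SYNJ1, and per role or marker list and site the gene of highest value, that of largest ratio and, in the antioxidant list, those past 1.5-fold. Gene positions came from GENCODE M21 and promoters from RefSeq, both on GRCm38.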

Additional observations from a re-analysis of the deposited data

How the results depend on the processing

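Leaving out replicates was not run, and no paired analysis was possible because the table holds 1 pooled value per group. The genes counted as lower past the fold depended most on the fold chosen. At 1.2-fold, 2 of the 10 genes above the lesion and 4 of the 8 below were lower, where 10.5% and 14.9% of all genes were. At 1.5-fold, 0 were lower above and 1 below, where 1.94% and 4.38% of all genes were. With a mean pooled value of at least 10 required, 0 of the genes above were lower past 1.3-fold (4.08% of all genes above that mean), since SLC7A11 lies just under that mean. In the list of 56 antioxidant genes, 15 of 51 were lower below the lesion and 1 higher at 1.2-fold, where 14.9% of all genes were lower and 12.6% higher. At 1.5-fold, 3 of 51 were lower below, and 2 of 55 were lower and 0 higher above, where 0.791% of all genes were higher above. Its mean log2 ratio above the lesion was -0.056, against a median of -0.0080. Centring on all genes moved the median of the 8 genes between sites in synj1+/- to -0.053. The genotype ratios of the 10 genes, their medians and those of the antioxidant list kept their sign under the alternatives run. Between sites in synj1+/-, NQO1 (0.017) lies under the median of all genes (0.022), so that centring turns its sign. In the antioxidant list, centring turned MAFK below the lesion from 0.0053 to -0.0091 and GPX7 above it from -0.00025 to 0.0036, so that 29 were lower above and 36 below, and among the iron genes it turned TFRC from 0.0052 to -0.0092 and SLC11A2 from 0.0064 to -0.0080 below. The other 56 counts and medians and the 40 values of single genes compared moved by at most 1.5 times or by under 0.02. The library totals were evened out within each site before alignment, but the table gives no reads per gene, so no counting error was computed for low genes such as NQO1, SLC7A11 and GPX7.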

Other observations

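Apart from SLC3A2, which is in the list of 56 antioxidant genes, the genes below were listed after the values of SLC7A11 had been seen. All are given as values, and the part of the cell types in them was not tested. Of 16 ATF4 and amino acid stress genes listed above the lesion, 14 were lower in mice labelled synj1+/- where 51% of all genes were lower. Past 1.3-fold, 1 of 16 was lower, DDIT4 with 40.9 and 30.9, which is near the 5.32% of all genes. Below the lesion, 9 of 14 were lower, 1 of them past 1.3-fold, and 1 was higher past it, where 47.2% of all genes were lower, 9.23% lower past 1.3-fold and 5.4% higher past it. CEBPB, a transcription factor of inflammation and stress, had 77.8 in mice labelled synj1+/+ and 45.1 in those labelled synj1+/- there (log2 ratio -0.79), and SLC7A3, a transporter of cationic amino acids, had 10.1 and 13.1 (log2 ratio 0.38), against a log2 ratio of -0.17 above the lesion. ATF4 itself was 133 and 132 above the lesion and 133 and 132 below it. SLC3A2, the heavy chain that pairs with SLC7A11 in the exchanger, had 442 and 357 above the lesion (log2 ratio -0.31) and 429 and 375 below it (log2 ratio -0.19).

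Among 8 ferroptosis and iron handling genes, 4 of 8 were lower above the lesion, 0 of them past 1.3-fold, and 5 of the 7 listed below, 2 of them past 1.3-fold. Of all genes, 51% were lower above the lesion, 5.32% past 1.3-fold, so that 4 of 8 lies at the background. Below the lesion 47.2% were lower, 9.23% past 1.3-fold. CP, the ferroxidase ceruloplasmin, had 39.7 and 30.6 above the lesion and 94.99 and 54.5 below it, with log2 ratios of -0.38 and -0.80. SLC40A1, the iron exporter ferroportin, had 23.7 and 15.5 below the lesion (log2 ratio -0.61) and 14.0 and 12.4 above it (log2 ratio -0.18). TFRC, the transferrin receptor for iron uptake, had 50.1 and 61.3 above the lesion (log2 ratio 0.29) and 61.4 and 61.6 below it.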
